A study of Mus musculus with 6 samples.

Results

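The enzymes that turn squalene into cholesterol were followed through 9 of their genes: Sqle, Lss, Cyp51, Tm7sf2, Msmo1, Nsdhl, Ebp, Sc5d and Dhcr7. They were picked by gene name, with earlier results of these data known, and all 9 were found among the 43346 genes of the deposited count table. The cells were primary mouse embryonic fibroblasts (MEFs), connective tissue cells grown from embryos, of the C57BL/6 strain at passage 9. One group received the solvent DMSO and the other 3 µM erastin for 24 h, with 3 libraries each and 6 in all. Erastin blocks the cystine/glutamate antiporter and is used to cause ferroptosis, a death driven by iron-dependent oxidation of membrane lipids. Both groups grew in a medium with 10% fetal bovine serum, which carries lipoproteins, and with 2-mercaptoethanol. The labels name no transgene or deletion. The experiment was run in triplicate per the design text, but the labels do not say whether the libraries came from separate embryos or cultures, so p-values measure only the spread between these libraries.

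In mammalian cells, squalene epoxidase and lanosterol synthase close the linear squalene chain into the first sterol, lanosterol. A series of enzymes in the endoplasmic reticulum then removes its extra methyl groups and moves and reduces its double bonds until cholesterol is made. Many of these genes are activated by the transcription factor SREBP-2, which is released from the endoplasmic reticulum when membrane cholesterol is low and acts together with the factors NF-Y and Sp1. The last intermediates also bear on ferroptosis: SC5D makes and DHCR7 uses an easily oxidised sterol that has been described as a trap for lipid radicals.

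The promoters of the 9 genes were searched for the letters of these factors' sites, from the RefSeq starts on GRCm38.p6. Starts were listed for 8 of the 9 genes, all except Sqle. The sites shown are the NF-Y boxes (letters CCAAT, or ATTGG when the box lies on the other strand) nearest to a start, each with its flanks over 30 bases on the gene's own strand, and the capitals mark the box.
Lss (chr10:76531531-76531560, plus strand): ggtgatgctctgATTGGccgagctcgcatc
Cyp51 (chr5:4104709-4104738, minus strand): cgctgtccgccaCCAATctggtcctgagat
Tm7sf2 (chr19:6067880-6067909, minus strand): ctcccagcgctgATTGGctactgtgctggg
Msmo1 (chr8:64733616-64733645, minus strand): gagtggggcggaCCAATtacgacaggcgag
Nsdhl (chrX:72918489-72918518, plus strand): aagactagcctcATTGGgcaaaatcatgct
Ebp (chrX:8193550-8193579, minus strand): atccctgtactgATTGGttcgtcagattcg
Sc5d (chr9:42264307-42264336, minus strand): cgccggctgctgATTGGccggctgcctgca
Dhcr7 (chr7:143830153-143830182, plus strand): aatccacttccgATTGGtcgtctgtgacct

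The first base of these boxes lay 20 bases (Nsdhl) to 62 bases (Lss) before the start. The 8 genes had 10 listed starts. An NF-Y box lay within 250 bases before 8 of these 10 starts, at least 1 in each gene, against 33.8% of the 32851 promoters in the RefSeq table. The last 100 bases, a window chosen after the positions were seen, held a box before 8 of the 10 starts and in 18.9% of all promoters. An Sp1 box (GGGCGG, both strands) was present before 9 of the 10 starts, against 32.7% of all promoters. Both boxes stood before 8 of the 10 starts and in 11.0% of all promoters. All promoters here means the whole RefSeq table, not matched to these genes for GC content or expression. The 10 windows had a GC content of 44.8% to 73.6%. What part GC content had in these shares was not tested. Dhcr7 had 3 listed starts, and its NF-Y boxes stood before the most downstream of them only. Not all windows lie outside genes. Exons annotated in GENCODE M21 covered all 250 bases of the Tm7sf2 window and of the Dhcr7 window with the boxes. They covered 214 bases for Msmo1, 112 for Nsdhl, and 0 for Ebp and Sc5d. By the gene positions given below, the boxes shown for Cyp51, Tm7sf2, Msmo1 and Dhcr7 lie within the annotated genes. The letters TCACNCCAC, a form of the sterol regulatory element, were in none of the 8 genes' windows and in 1.05% of all promoters. Only this form was searched. Letters this rare would seldom be found in 10 windows, so their absence says little about such elements. The antioxidant response element core TGACNNNGC was found once, before a Dhcr7 start, against 10.2% of all promoters. Matches are letters only, and binding was not measured here. The boxes were found in genes with large falls given below, such as Nsdhl and Cyp51. They were also found in Sc5d, whose fall was small, and in Ebp, which did not pass the test. A relation between the boxes and the differences was not tested, and Sqle had no listed start.

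Total counts were 13333911 to 20509970 per library, and the 9 genes had between 77 reads (Tm7sf2) and 3187 reads (Cyp51) in a library. Levels are given as CPM, read counts relative to library size after TMM scaling between libraries. Fibroblast markers were abundant: the summed level of 10 of them was 35400 to 38500 CPM with DMSO and 25500 to 26900 CPM with erastin. Of these, 8 of 10 fell, where 21.5% of all tested genes fell and 21.6% rose. Endothelial markers summed to 4.66 to 7.10 CPM with DMSO and 13.2 to 16.4 CPM with erastin: Kdr and Tek rose, and the defining markers Pecam1 and Cdh5 had at most 15 reads. Muscle markers summed to 35.5 to 45.3 and 65.0 to 68.4 CPM: Des rose, and Myod1 and Myog had at most 9 reads. Neural markers summed to 72.3 to 101 and 54.7 to 61.2 CPM, and 1 of 4, Tubb3, fell. Of the other markers with enough reads to be tested (5 of 5 for macrophages, 2 of 5 for epithelium, 1 of 3 for adipocytes and 0 of 3 for hepatocytes), none passed, and Adipoq had 0 reads in all 6 libraries. What part any of these had in the sterol gene values was not tested. In bulk RNA, fewer cells of a type cannot be told apart from less RNA per cell.

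Of the 9 genes, 8 fell with erastin and none rose, at an edgeR adjusted p-value under 0.05 over the 14000 genes tested. Among all genes tested, 21.5% were called lower. The median log2 fold change of the 9 genes was -1.22, beside -0.0014 over all genes tested. Lss, Cyp51, Tm7sf2, Msmo1, Nsdhl and Dhcr7 fell to less than 50% of the DMSO level, a size of fall that 7.16% of all tested genes had. Sqle and Sc5d fell by less, and Ebp did not pass the test. All erastin libraries lay below all DMSO libraries for 8 genes, compared with 25.8% of all tested genes. The plot of levels by library shows all 9 genes.

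**Figure D1:**
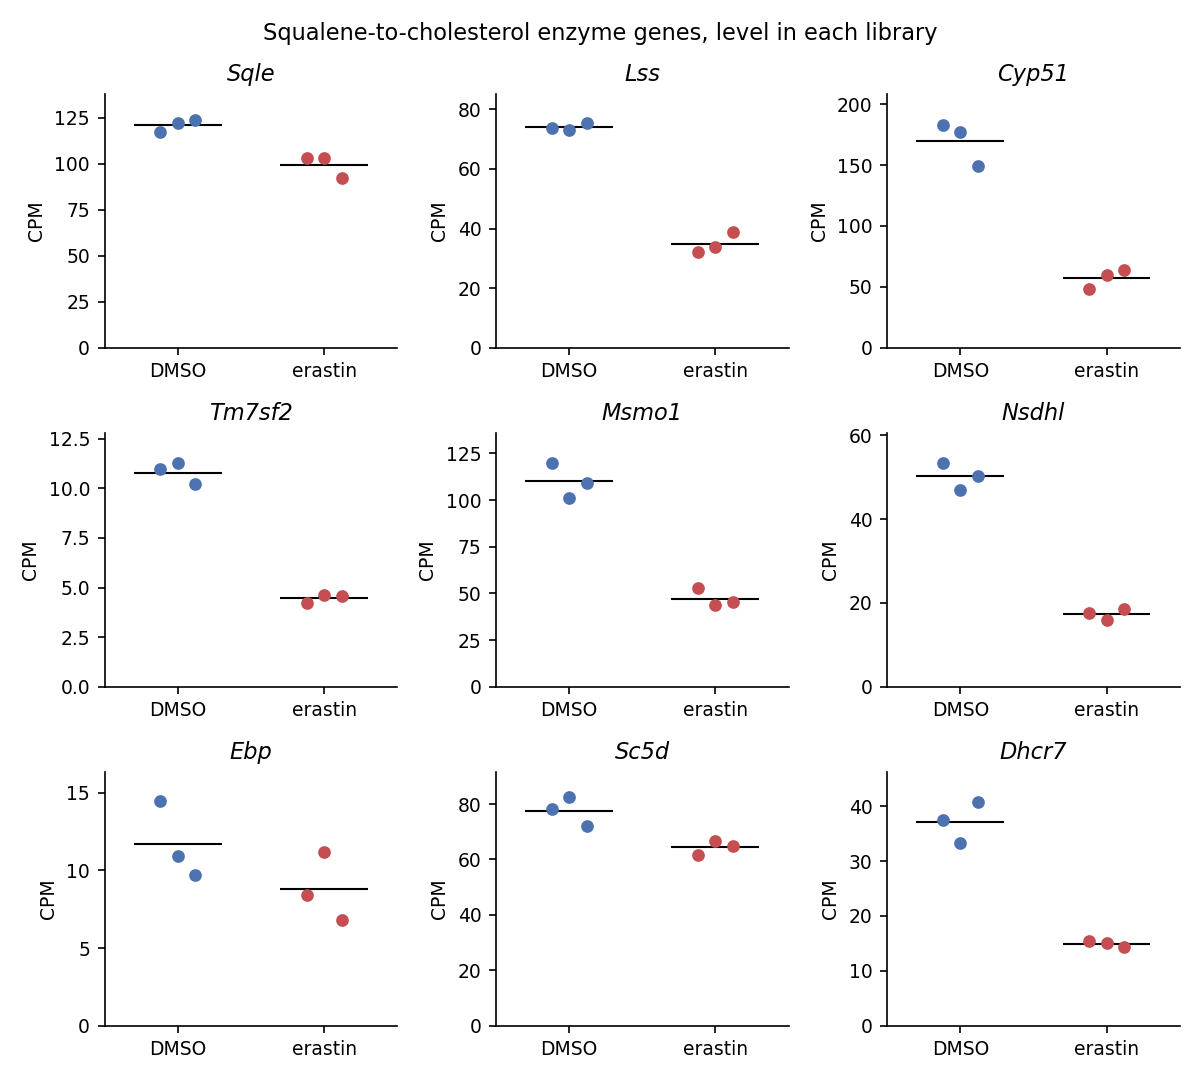
Level of each of the 9 genes in CPM (y axis, from 0) in the 3 DMSO and 3 erastin libraries (points) with the group mean (line). The groups are apart in 8 panels and overlap for Ebp, and the gap is narrow for Sqle and Sc5d.

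Sqle encodes squalene epoxidase, a rate-limiting enzyme of the late pathway, and is annotated at chr15:59315077-59331192 on the plus strand of GRCm38. Its levels were 117, 122 and 124 CPM in DMSO replicates 1, 2 and 3, and 103, 103 and 92.4 CPM in erastin replicates 1, 2 and 3. The groups did not overlap, but the nearest libraries were close. Sqle fell to 82.1% of the DMSO level (log2 fold change -0.28, SE 0.08, edgeR adjusted p = 0.0106). Its adjusted p-value stayed under the threshold in all 15 alternatives, at up to 0.0482.

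Lss encodes lanosterol synthase, which folds the epoxide made by squalene epoxidase into the sterol ring system (chr10:76531588-76557138, plus strand). It was at 73.7, 73.0 and 75.4 CPM with DMSO and at 32.1, 33.7 and 38.9 CPM with erastin. The DMSO libraries lay within a few CPM of each other, and every erastin library was far below them. The log2 fold change was -1.08 (SE 0.10, edgeR adjusted p = 5.8e-07). An antisense gene, 4930483K19Rik, shares 381 exonic bases with Lss and had at most 1 read.

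Cyp51 encodes the cytochrome P450 that takes the first methyl group off lanosterol and is the target of azole drugs in fungi (chr5:4081145-4104746, minus strand). Its levels were 183, 177 and 149 CPM with DMSO and 47.9, 59.3 and 63.8 CPM with erastin, a log2 fold change of -1.57 (SE 0.11, edgeR adjusted p = 5.57e-08). DMSO replicate 3 was the lowest control library and was still more than double the highest erastin library. Of all tested genes, 3.76% had a lower log2 fold change. The fall of Cyp51 and that of Nsdhl (-1.53, given below) differed by less than their standard errors. Akap9, on the opposite strand, shares 166 exonic bases with Cyp51 and rose, with a log2 fold change of 0.62 (edgeR adjusted p = 0.000225). Whether counting used the strand is not given in the sources used here.

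Tm7sf2 encodes a sterol reductase that saturates the double bond left by that demethylation (chr19:6062821-6068373, minus strand). It was one of the 2 least expressed of the 9 genes, at 11.0, 11.3 and 10.2 CPM with DMSO and 4.24, 4.61 and 4.56 CPM with erastin. The libraries of each group were close together, and the groups were well apart. The log2 fold change was -1.27, with an SE of 0.22 and an edgeR adjusted p-value of 0.00024. Vps51 lies on the same strand and shares 532 exonic bases with Tm7sf2, so the split of reads between them is uncertain. Vps51 was at 20.7 ± 0.436 and 17.1 ± 2.97 CPM (SD, n = 3 each; edgeR adjusted p = 0.174).

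Msmo1 and Nsdhl act in turn to strip the remaining pair of methyl groups, Msmo1 as an oxidase and Nsdhl as a dehydrogenase that releases the carbon. Msmo1 (chr8:64718139-64733792, minus strand) was at 120, 101 and 109 CPM with DMSO and 52.7, 43.6 and 45.2 CPM with erastin. Its log2 fold change was -1.22 (SE 0.10, edgeR adjusted p = 2.2e-07). Nsdhl (chrX:72918557-72958514, plus strand), one of 2 X-linked genes among the 9, was at 53.3, 46.9 and 50.4 CPM with DMSO and 17.7, 15.9 and 18.6 CPM with erastin. Nsdhl fell to 34.7% of the DMSO level, a log2 fold change of -1.53 (SE 0.11, edgeR adjusted p = 1.03e-07). For both genes the erastin libraries were all far below the lowest DMSO library.

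Ebp, the other X-linked gene (chrX:8185329-8193512, minus strand), encodes the isomerase that shifts a double bond within the ring system. It was at 14.5, 10.9 and 9.73 CPM with DMSO and 8.43, 11.2 and 6.79 CPM with erastin. Erastin replicate 2 lay above DMSO replicates 2 and 3, so the groups overlapped. The log2 fold change was -0.41 (95% confidence interval -0.91 to 0.08, edgeR adjusted p = 0.164). The interval includes no change. The coefficient of variation was 21.2% with DMSO and 25.3% with erastin, the highest of the 9 genes in each group, with 125 to 197 reads per library. Ebp did not pass in any of the 15 alternatives.

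Sc5d encodes lathosterol oxidase, which inserts the double bond that makes the oxidisable intermediate (chr9:42251595-42264256, minus strand). Its levels were 78.1, 82.4 and 72.2 CPM with DMSO and 61.8, 66.5 and 64.8 CPM with erastin, so the groups did not overlap. Sc5d fell to 82.9% of the DMSO level (log2 fold change -0.27, SE 0.09, edgeR adjusted p = 0.0219). This call was lost in 5 of 15 alternatives: with scaling by total count only (edgeR adjusted p = 0.0836), without the filter on low counts (0.0607), and when DMSO replicate 1 (0.0526), DMSO replicate 2 (0.108) or erastin replicate 1 (0.0952) was left out. Its adjusted p-values over all alternatives ran from 0.00209 to 0.108.

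Dhcr7 encodes the reductase that acts on the sterol made by lathosterol oxidase and removes another double bond of its ring system, which gives cholesterol (chr7:143823145-143848410, plus strand). It was at 37.5, 33.3 and 40.8 CPM with DMSO and 15.5, 15.1 and 14.3 CPM with erastin. The erastin libraries agreed more closely with each other than the DMSO libraries did, with coefficients of variation of 4.23% and 10.1%. The log2 fold change was -1.31 (SE 0.13, edgeR adjusted p = 1.21e-06), or 40.3% of the DMSO level.

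Sc5d and Dhcr7, which make and use the same sterol, therefore differed in the size of their fall, and the ratio of their reads within a library does not depend on scaling between libraries. The count ratio Sc5d to Dhcr7 was 2.08, 2.47 and 1.77 in the DMSO libraries and 3.98, 4.40 and 4.54 in the erastin libraries. Every erastin library had a higher ratio than every DMSO library. The ratio was 2.06-fold higher on average with erastin (log2 difference 1.04; two-sided exact permutation test p = 0.1, adjusted p = 0.1 over 4 pairs). With 3 libraries against 3 this is the smallest p-value the test can give, so no pair could pass a threshold of 0.05.

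Another 2 pairs were compared in the same way and each gave an exact permutation p of 0.1, which was also 0.1 after adjustment. Sqle to Lss, the pair that makes and uses squalene epoxide, stood at 1.59, 1.67 and 1.65 with DMSO and 3.20, 3.06 and 2.37 with erastin, a 1.75-fold higher ratio. Tm7sf2 to Lbr, the second gene being that of the lamin B receptor, which has the same reductase activity, stood at 0.248, 0.288 and 0.295 with DMSO and 0.109, 0.144 and 0.151 with erastin. That ratio was 2.07-fold lower with erastin, and here too the groups did not overlap.

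**Figure D2:**
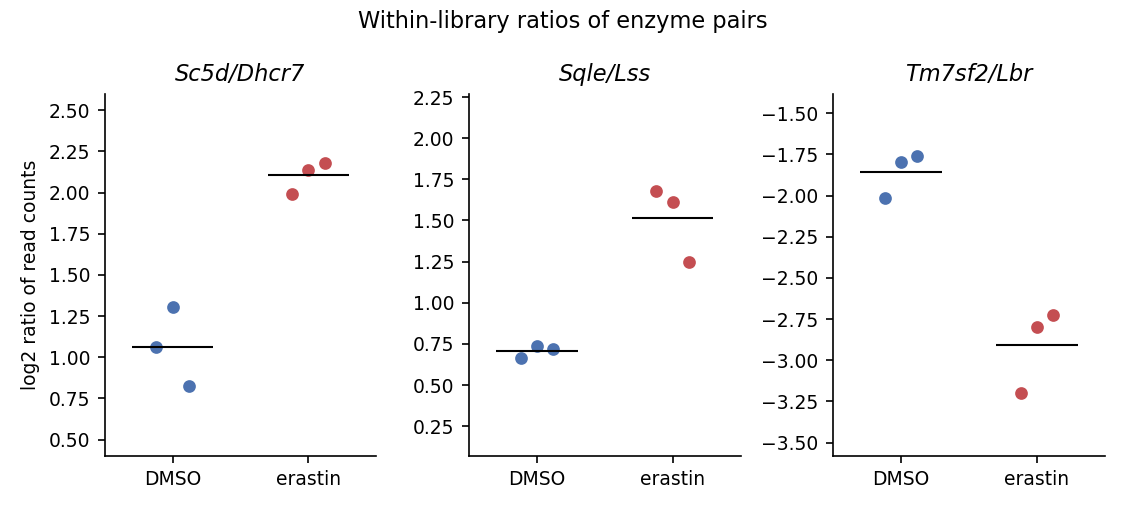
Log2 ratio of read counts (y axis, all panels span the same height) of 3 enzyme pairs in each DMSO and erastin library (points) with the group mean (line). Sc5d/Dhcr7 and Sqle/Lss were higher and Tm7sf2/Lbr lower in all 3 erastin libraries than in any DMSO library.

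Levels of different genes were compared after division by the length of the longest protein-coding transcript in GENCODE M21. In the DMSO libraries Msmo1 was highest at 53.7 ± 4.55 CPM per kb (SD, n = 3), followed by Sqle at 43.9 ± 1.37 and Cyp51 at 43.1 ± 4.65, and this pair overlapped. Nsdhl came next at 23.2 ± 1.49 CPM per kb. Sc5d, Lss and Dhcr7 were at 16.2 ± 1.07, 15.9 ± 0.266 and 13.2 ± 1.33 CPM per kb, of which Sc5d and Lss overlapped. Tm7sf2 at 7.21 ± 0.364 and Ebp at 6.72 ± 1.43 CPM per kb were lowest and overlapped.

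With erastin the order by length-scaled level changed at its top and also farther down. Sqle was then highest at 36.1 ± 2.21 CPM per kb (SD, n = 3), above Msmo1 at 23.1 ± 2.39, and its lowest library (33.5) was above the highest Msmo1 library (25.8). Sqle made up 31.1% of the summed level of the 9 genes with erastin and 19.7% with DMSO. Cyp51 at 14.5 ± 2.08 and Sc5d at 13.4 ± 0.495 CPM per kb overlapped, whereas Cyp51 had been far above Sc5d with DMSO. Nsdhl and Lss, at 8.01 ± 0.635 and 7.48 ± 0.769 CPM per kb, overlapped, as did Dhcr7 at 5.31 ± 0.225 and Ebp at 5.05 ± 1.28. Sc5d, which was below Nsdhl with DMSO, was above it with erastin. Tm7sf2 was lowest at 2.98 ± 0.136 CPM per kb, and its highest library (3.08) was below the lowest Ebp library (3.9). These orders are descriptions and were not tested, and they depend on which transcript the cells use.

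**Figure D3:**
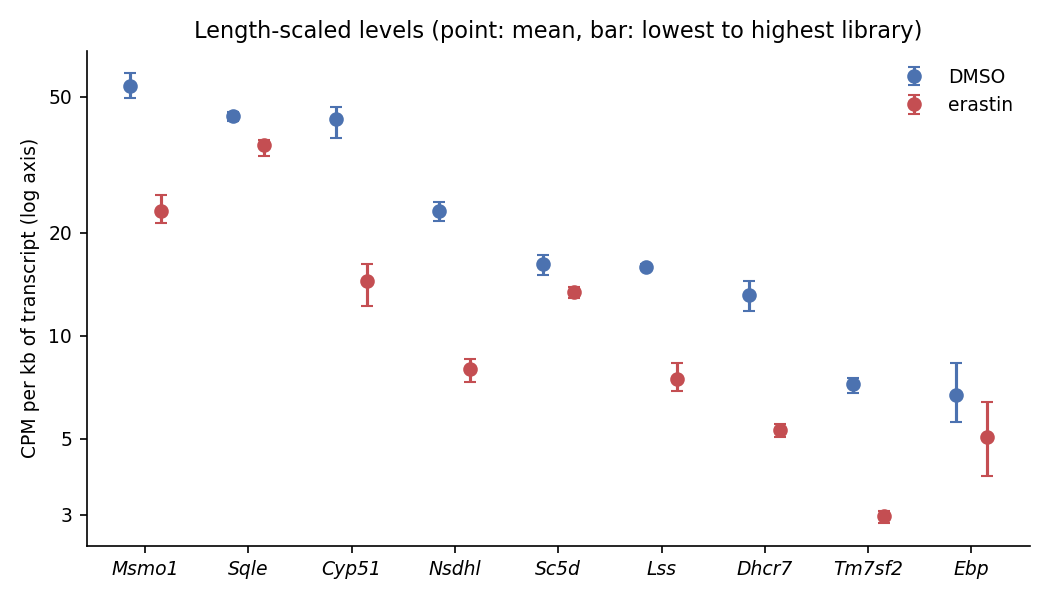
Level per kilobase of the longest protein-coding transcript (y axis, log scale) for the 9 genes, with DMSO and erastin means (points) and the lowest and highest library (bars). The erastin points of Sqle and Sc5d lie close to their DMSO points, and Sqle is the highest gene with erastin.

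Summed over the 9 genes, the level was 641 to 688 CPM in the DMSO libraries and 343 to 353 CPM in the erastin libraries. Within the erastin group each library was the highest for 2 to 4 of the 9 genes and the lowest for 2 to 4. With any 1 of the 6 libraries left out, 7 to 8 of the 9 genes still passed as lower.

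The genes of the earlier, mevalonate arm, which builds squalene, were taken as 1 comparison list. All 9 of its genes fell, against the 21.5% of all tested genes given above, and their log2 fold changes ran from -2.01 to -0.64 around a median of -1.27. The smallest change was that of Pmvk, phosphomevalonate kinase (edgeR adjusted p = 0.0356), a call lost in 7 of 15 alternatives: total count only (0.0589), the GC and length offset alone (0.144) or with the replicate block (0.104), and without DMSO replicate 1 (0.175) or 3 (0.0506) or erastin replicate 1 (0.0857) or 2 (0.129). The smallest p-values were those of Hmgcs1, the synthase at the entry of the pathway (146 ± 6.25 to 36.9 ± 1.96 CPM), and Mvk, mevalonate kinase (48.9 ± 2.87 to 12.1 ± 0.978 CPM; SD, n = 3 each). Their log2 fold changes were -1.98 and -2.01, with edgeR adjusted p-values of 7.99e-10 and 1.23e-08. Beside these values, the estimates of Sqle, Ebp and Sc5d in the later arm lay between -0.41 and -0.27. These estimates were higher than the highest of the mevalonate arm (-0.64). The size of the Ebp difference is uncertain, with a confidence interval of -0.91 to 0.08. The interval of Pmvk (-1.13 to -0.15) overlapped that of Ebp. It also overlapped those of Sqle (-0.46 to -0.11) and Sc5d (-0.46 to -0.08). Whether the arms differ was not tested.

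Other genes of the late steps and their helper proteins formed a list of 12, of which 11 were matched and tested. Of these 7 fell and 2 rose, where 21.5% and 21.6% of all tested genes did, and their median was -0.39. Hsd17b7, the ketoreductase that works after Nsdhl, and Erg28, a scaffold protein for the demethylation enzymes, were among those that fell, with log2 fold changes of -1.13 and -1.01 (edgeR adjusted p = 1.03e-06 and 3.33e-06). These are the partners of Msmo1 and Nsdhl, whose log2 fold changes were -1.22 and -1.53.

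The helpers that pass electrons were split. Cyb5a, Cyb5b and Cyb5r3, the cytochromes b5 and their reductase, all fell, with log2 fold changes of -0.65, -0.49 and -0.39 (edgeR adjusted p = 7.17e-05, 0.00015 and 0.000607). Por, the reductase that feeds Cyp51 and squalene epoxidase, was at 102 ± 0.461 CPM with DMSO and rose to 122 ± 16.2 CPM (SD, n = 3 each). Its log2 fold change was 0.26 (edgeR adjusted p = 0.0405), a call that was lost in 6 of 15 alternatives. These were upper-quartile scaling (edgeR adjusted p = 0.1) and each of 5 fits that left out 1 library, all except the one without erastin replicate 3 (up to 0.219). Pgrmc1, a heme protein that binds cytochromes P450, rose by 0.31 (edgeR adjusted p = 0.00827) and passed in all 15 alternatives.

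Of the genes with activities or sequences related to Tm7sf2 and Ebp, Lbr and Ebpl did not pass the test. Lbr was at 39.4 ± 4.86 and 33.9 ± 4.63 CPM with overlapping groups (SD, n = 3; log2 fold change -0.22, 95% confidence interval -0.49 to 0.06, edgeR adjusted p = 0.193). Ebpl, a relative of Ebp, was at 8.83 ± 1.79 and 7.46 ± 3.02 CPM (SD, n = 3; log2 fold change -0.25, edgeR adjusted p = 0.512).

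**Figure D4:**
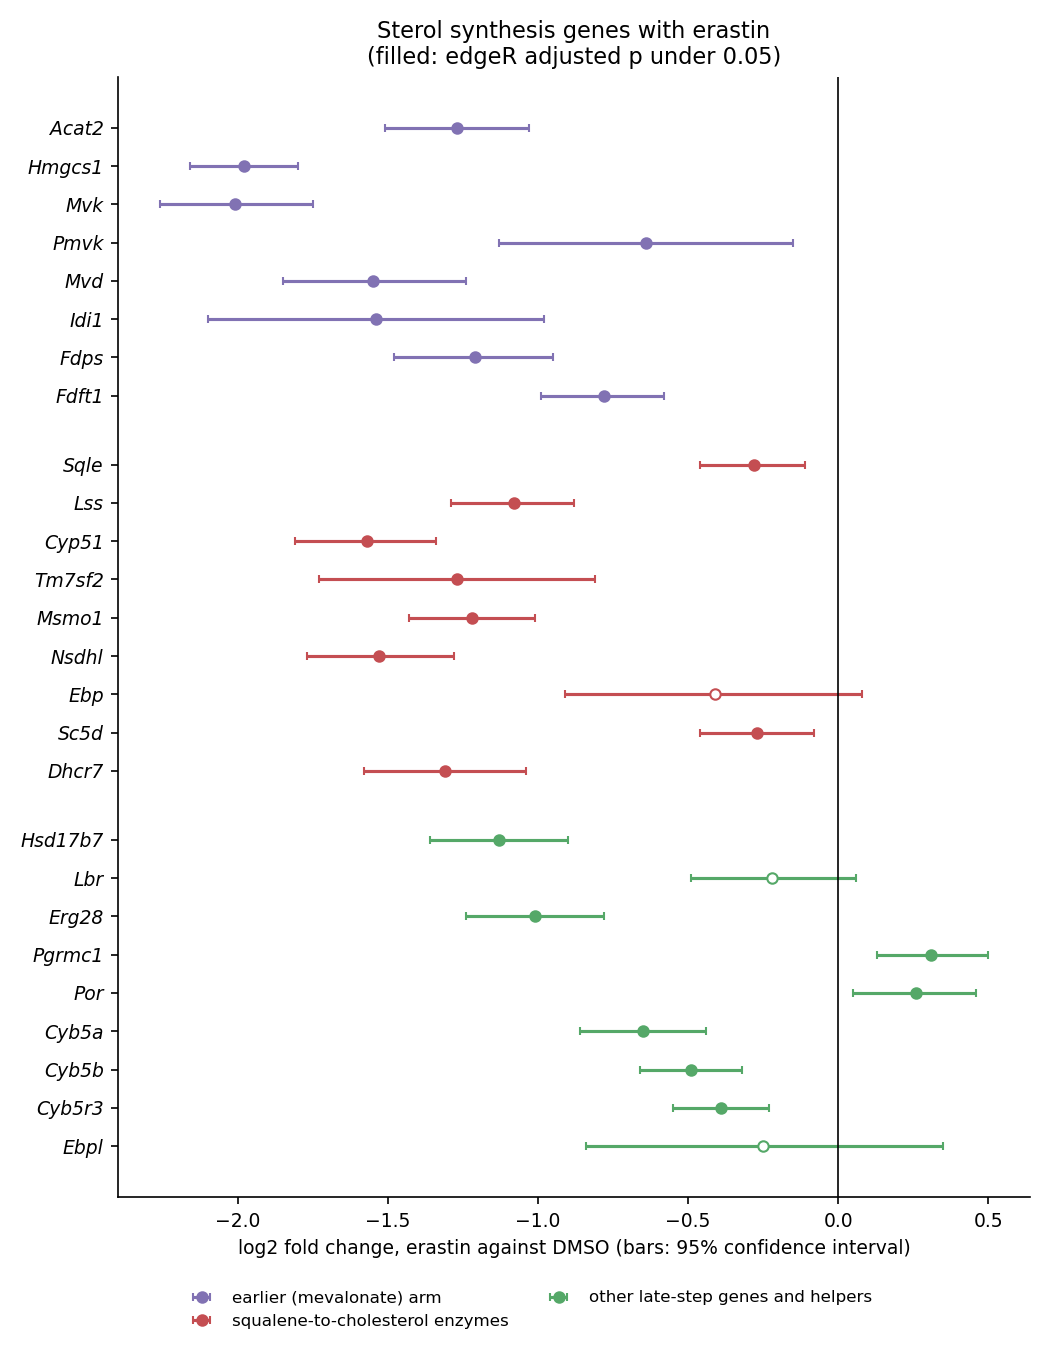
Log2 fold change of erastin against DMSO (x axis) with its 95% confidence interval (bars) for genes of the mevalonate arm, the 9 squalene-to-cholesterol genes and other late-step genes; filled points passed at an edgeR adjusted p under 0.05. Sqle, Ebp and Sc5d lie between -0.41 and -0.27, and the other 6 of the 9 genes between -1.57 and -1.08.

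Among 25 genes that regulate sterol synthesis or move cholesterol, 10 fell and 6 rose, with a median of -0.17, where 21.5% of all tested genes fell and 21.6% rose. The share that rose was near that of all genes. Under the 15 alternatives 9 to 12 fell and 5 to 7 rose. Npc1, which exports cholesterol from lysosomes, had one of the 3 smallest p-values (log2 fold change 1.14, edgeR adjusted p = 9.18e-08). Srebf2, the gene of SREBP-2, and Insig1, whose product holds SREBP-2 back and whose gene is a target of it, were chosen after their values were seen. Srebf2 stood at 235 ± 15.8 CPM with DMSO and 122 ± 3.13 CPM with erastin, and Insig1 at 81.8 ± 12.0 and 34.2 ± 2.25 CPM (SD, n = 3 each). The log2 fold changes were -0.94 and -1.26 (edgeR adjusted p = 2.07e-07 and 4.9e-07).

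Fewer of these regulators rose than fell, and those that rose included Npc1, Insig2, March6, Mbtps2 and Soat1. Insig2, the second INSIG gene, stood at 28.0 ± 3.74 CPM and rose to 56.7 ± 1.17 CPM (SD, n = 3 each), the opposite direction to Insig1, with a log2 fold change of 1.02 (edgeR adjusted p = 3.79e-06). March6, a ubiquitin ligase that degrades the squalene epoxidase protein, stood at 62.0 ± 6.35 CPM and rose to 95.2 ± 6.99 CPM (SD, n = 3 each; log2 fold change 0.62; edgeR adjusted p = 0.000124). Soat1, which esterifies cholesterol, and Mbtps2, a protease that releases SREBPs, rose by 0.44 and 0.54 (edgeR adjusted p = 0.00251 and 0.00539), Mbtps2 not after an offset for GC content and transcript length (0.0514).

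Finally, the 5 genes outside the 9 whose centred log2 CPM profile over the 6 libraries lay nearest to the median profile of the 9 were sought among the 11252 others whose counts averaged 50 or more. They were Calr (a chaperone of the endoplasmic reticulum), Gnai2 (a G protein subunit), Loxl3 (a lysyl oxidase relative), Tubb5 (a tubulin) and Plekhg2 (an activator of small GTPases), at Euclidean distances of 0.069 to 0.125, with log2 fold changes of -1.21 to -1.12. Of the 9 genes themselves, Tm7sf2, Msmo1, Lss and Dhcr7 were nearest to their own median profile (0.213 to 0.257), and Sqle, Ebp and Sc5d were farthest (1.098 to 1.122). With 2 groups of 3 libraries, likeness mostly reflects the size of the difference between treatments.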

How the data were processed

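RNA was measured in 3 DMSO and 3 erastin libraries. The deposited values were whole-number read counts per gene, not normalized by the authors. Per the submitters' processing notes, HTSeq 0.9.1, SAMtools and the build mm10 were used; aligner, annotation, strand setting and treatment of multiply matching reads are not given in the sources used here. Per the labels' protocols, libraries were made from rRNA-depleted total RNA with PCR and sequenced on an Ion Proton; no molecular identifiers are described. Standard errors, SDs and p-values measure the spread between libraries; the floor given next covers counting error only. A level of 3 counts was worth 0.14 to 0.234 CPM. Symbols (42462 of 43346 identifiers), positions and lengths came from GENCODE M21 (GRCm38, the assembly mm10 names).

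Counts were fitted with edgeR 4.0.16 in R 4.3.3: filterByExpr defaults (14000 genes kept), TMM factors, quasi-likelihood test, treatment as the only term, Benjamini-Hochberg adjustment over all tested genes, threshold 0.05. Standard errors came from the fitted weights and posterior quasi-dispersion. Ratios used 0.5 added counts. Data were simulated with the library sizes of this design (13827 genes). The fit recovered 78% of genes changed by 1 and 100% of those changed by 2 on the log2 scale. The simulation gave all genes the same dispersion and changed far fewer genes than were called here. These rates may therefore not hold for the real data. No pair of libraries agreed within sampling noise (chi-square per degree of freedom at least 11). Unused sample columns numbered 0.

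Alternatives were RLE, upper-quartile and total-count scaling, no filter, a filter of 1 CPM in 3 libraries, DESeq2 1.42.0, the replicate number as a block, a GC and length offset (mgcv 1.9.3) with and without that block, and leaving out each library. The genes, lists and tests were chosen with earlier results of these data known. The rule for named genes took all 9 genes, all matched late-step genes, the 3 smallest p-values of the other lists, genes against a list's majority, and the 5 nearest profiles; some genes and 1 of the 4 ratios that it covers are counted but not reported here.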

Additional observations from a re-analysis of the deposited data

How the results depend on the processing

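Under the 15 alternatives the number of the 9 genes lower with erastin was 7 or 8 and the number higher was 0 throughout; Sc5d was the only gene of the 9 whose call changed. Their median log2 fold change, -1.22, was -1.27 with upper-quartile factors, -1.15 with total count only, -1.20 without the filter on low counts, -1.24 with an offset for GC and length (also when combined with the replicate block), and -1.24 to -1.15 when 1 library was left out. Of the late-step genes and helpers, 1 rather than 2 rose with upper-quartile factors, and 1 to 2 when 1 library was left out. Regulators that were not called reversed sign in a few fits: Abca1 was -0.0253 under the offset and -0.0330 when the replicate block was added to it, and the values without 1 library ran from -0.0502 to 0.127 for Abca1, -0.0571 to 0.157 for Apoe, -0.0127 to 0.167 for Ch25h and -0.612 to 0.0716 for Abcg1. Some regulators that were not called passed in a few of the 15 alternatives. As higher, Nr1h2 passed in 4 and Apoe in 2. As lower, Mbtps1 passed in 3 and Rnf139 in 2. The cause of these changes was not tested.

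Of all genes passing, 49.8% were lower after TMM scaling, 56.0% after upper-quartile scaling and 42.9% after scaling by total count only; the respective medians of all genes were -0.00142, -0.0552 and 0.0646. With the replicate block alone 8 of the 9 genes were lower, and no call among the lists changed. Equally numbered libraries deviated together only weakly (correlations of 0.0401, 0.00379 and -0.0055 for numbers 1, 2 and 3; DMSO replicate 3 correlated best with another number), so the numbers were not taken as a pairing. Averaged over equally numbered libraries, the Sc5d to Dhcr7 log2 ratio was 1.04 higher. With 3 libraries in each group this average equals the difference of group means by construction, so it is no separate check. The 3 ratios kept their sign in all 8 alternatives each, which include this average. The groups did not overlap for these pairs, so leaving out 1 library could not change the sign. The sign in those fits is therefore no separate check either. Without 1 library the log2 differences ran from 0.922 to 1.16 (Sc5d to Dhcr7), 0.721 to 0.937 (Sqle to Lss) and -1.14 to -0.905 (Tm7sf2 to Lbr). Depth limits Tm7sf2 and Ebp most, which had 77 to 203 and 125 to 197 reads per library.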
